A study of Rattus norvegicus with 13 samples.

Results

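The olfactory receptors examined here were those with the higher array signals among the receptors in rat brain. They were chosen by their signal: probe sets with a single gene symbol of the rat receptor families (Or followed by a family number, or the older Olr numbers) and a mean log2 signal of 6.5 or more over all 13 arrays, the only measured value used. Of 29214 probe sets on the array, 1127 named a receptor by this rule after 1 receptor, Olr59, was left out, and 130 of these (11.5%), each for a different gene, reached the threshold. The other 997 receptor probe sets are called the dimmer receptors and serve only as background. On this type of array several short probes measure each transcript and are summarised as a single value, called a probe set. The threshold is a rule on signal and not a detection call: no detection p-value was at hand, and whether a given receptor exceeded the background of the array is unknown.

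The animals were male rats of the inbred Fischer F344 strain, aged 15 months, and the tissue was the brain without the cerebellum. The maternal control group (7 arrays) was born to dams on a control diet and the maternal fructose group (6 arrays) to dams fed a high fructose diet from day 1 of gestation through lactation. All offspring were weaned on day 20 onto chow, so both groups ate the same food for nearly all of their lives. The labels do not say which litter an animal came from or whether each array was a separate animal, and p-values therefore reflect only how far these samples vary, which may be technical.

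Olfactory receptors are G protein-coupled receptors that bind odorants on the cilia of sensory neurons in the nose, and they form the largest gene family of rodents. Class I receptors are related to those of fish, and class II receptors make up the rest of the mammalian repertoire. Each olfactory sensory neuron expresses a single receptor allele. The bound receptor activates the G protein subunit encoded by Gnal, which stimulates the adenylyl cyclase encoded by Adcy3, and the resulting cyclic AMP opens the channel whose main subunit is encoded by Cnga2. Most receptor genes have a coding region without introns and lie in large clusters, and transcripts of some have been described outside the nose, the brain included.

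The start of 4 of these genes is shown, because the results turn on them: Or2ak5 had the highest mean signal of the set, Or8s8 the largest spread between arrays, Or8i2 the smallest unadjusted p in the comparison of diets, and Or9s15 lies in the longest run of neighbouring members. Each window holds the 250 bases before and the 50 bases after the annotated gene start in the RefSeq annotation of assembly GRCr8, read in the direction of transcription. Capitals mark the start codon and, in Or8i2, the motif TAATTA. The Or2ak5 window is at chr10:43853826-43854125 (plus strand), the Or8s8 window at chr7:131470561-131470860 (plus strand), the Or8i2 window at chr3:92577207-92577506 (minus strand) and the Or9s15 window at chr9:100596781-100597080 (plus strand).
Or2ak5: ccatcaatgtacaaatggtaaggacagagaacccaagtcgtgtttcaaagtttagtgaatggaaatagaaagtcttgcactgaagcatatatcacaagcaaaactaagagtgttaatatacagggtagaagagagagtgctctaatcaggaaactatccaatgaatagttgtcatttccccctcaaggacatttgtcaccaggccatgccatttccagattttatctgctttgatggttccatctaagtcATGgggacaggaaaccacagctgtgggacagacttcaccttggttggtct
Or8s8: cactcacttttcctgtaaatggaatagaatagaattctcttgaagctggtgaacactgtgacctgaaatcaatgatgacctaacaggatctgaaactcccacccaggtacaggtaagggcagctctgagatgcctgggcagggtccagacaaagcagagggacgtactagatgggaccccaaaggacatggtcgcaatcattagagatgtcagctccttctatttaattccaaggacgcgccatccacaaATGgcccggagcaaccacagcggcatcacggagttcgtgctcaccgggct
Or8i2: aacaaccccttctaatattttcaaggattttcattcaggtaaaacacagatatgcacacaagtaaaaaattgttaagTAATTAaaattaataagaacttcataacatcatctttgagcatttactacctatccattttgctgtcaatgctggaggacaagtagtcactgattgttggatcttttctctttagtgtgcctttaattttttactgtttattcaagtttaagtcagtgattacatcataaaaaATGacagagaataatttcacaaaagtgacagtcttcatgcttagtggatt
Or9s15: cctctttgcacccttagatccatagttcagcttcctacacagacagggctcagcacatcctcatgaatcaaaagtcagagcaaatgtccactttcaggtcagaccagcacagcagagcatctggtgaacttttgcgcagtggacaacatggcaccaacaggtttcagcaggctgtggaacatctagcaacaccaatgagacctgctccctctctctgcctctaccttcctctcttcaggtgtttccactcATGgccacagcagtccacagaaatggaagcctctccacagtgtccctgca
In all 4 windows the annotated gene starts at the ATG, so the bases before it are those next to the coding region, which need not be the promoter. This held for all 113 members that had a window and for 840 of 844 dimmer receptors (99.5%). The 4 windows differed in base composition, with a G+C content of 41.7% in Or2ak5, 50.7% in Or8s8, 30.3% in Or8i2 and 51.3% in Or9s15. The Or8s8 window held 9 CG dinucleotides, those of Or2ak5 and Or9s15 held 1 each, and that of Or8i2 held 0.

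Mean signals of the 130 members ran from 6.51 to 9.29 with a median of 6.77, which says only how the rule cut the receptors. The median over all 15633 probe sets with a gene was higher, 8.04. Leaving out the 30% dimmest of these kept 31 of the 130 members, so most members lay at the low end of the array. Values of different probe sets depend on their probes as well as on RNA, so their order is not an order of RNA amounts. Of the members, 90 had a mean under 7, 40 a mean of 7 or more and 11 a mean of 7.5 or more. The members just inside the threshold were Or10a5 at 6.52 and Or5ar1 and Or4d2b at 6.51, and the receptors just outside it were Or5k3, Olr1093 and Or6ae1, whose means were below the threshold and round to 6.5. Or2ak5, a class II receptor, stood apart at 9.29. It was followed by Or4k48 (7.94), Or13j1 (7.87), Or10d5 (7.71), Or2h1 (7.69), Or10s1 and Or10ac1 (7.67), Or6b13 (7.66), Or11h23b (7.56) and Or2b11 (7.55).

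Both receptor classes were represented. The members included 17 of 123 class I receptors (13.8%), 106 of 946 class II receptors (11.2%) and 7 of 58 probe sets with an Olr symbol (12.1%). Between families the shares ran wider. Family 2 gave 25 members of 108 (23.1%), family 10 gave 17 of 72 (23.6%), family 13 gave 9 of 40 (22.5%) and family 9 gave 8 of 30 (26.7%). The largest family on the array, family 5, gave 4 of 154 (2.6%), family 4 gave 4 of 134 (2.99%), family 8 gave 7 of 121 (5.79%) and family 14 gave 0 of 21. These shares describe the choice and were not tested.

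Some subfamilies passed the threshold nearly whole. In Or9s, 6 of 7 receptors were members (85.7%), with means from 6.58 in Or9s23 to 7.37 in Or9s13 and Or9s15, while Or9s18 had a mean of 6.32. In Or8s, 4 of 5 were members (80%): Or8s10 at 7.25, Or8s2 at 6.93, Or8s16 at 6.77 and Or8s8 at 6.75, beside Or8s5 at 6.13. Other subfamilies were split. Of 12 Or2ak receptors, 5 were members, and their probe sets ran from 4.44 in Or2ak4e to 9.29 in Or2ak5. Apart from Or2ak5, the highest Or2ak means were 7.37 in Or2ak6e and 7.12 in Or2ak5d. Close paralogs can share probes or RNA that binds to the probes of a relative, and the probe sequences were not used here, so the value of a single Or2ak, Or9s or Or8s gene is uncertain.

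In the gene order of GRCr8, 129 members could be placed. An immediate neighbour that was another member was found for 56 of them (43.4%), against 105 of 996 dimmer receptors (10.5%) that had a member as neighbour. The 56 lay in 23 runs: 1 run of 6 (Or9s23, Or9s27, Or9s15, Or9s14b, Or9s14 and Or9s13), 6 runs of 3 and 16 pairs. Or8s2, Or8s10 and Or8s8 formed 1 of the runs of 3. At least 1 named neighbour that was no receptor gene was found for 40 of 129 members (31%) and for 121 of 996 dimmer receptors (12.1%). These shares were not tested. Examples are Or9s13 beside Cops9, a subunit of the COP9 signalosome; Or8s8 beside Lalba, the milk protein alpha-lactalbumin; Or2h2 beside Gabbr1, a GABA-B receptor subunit; and Or2y1g beside Mgat1, an enzyme of N-glycan synthesis. Or10k2 lay between Ndufb7, a subunit of respiratory complex I, and Scoc, and Or6e1 between Abhd4 and Oxa1l. The annotated spans of Or51k2 and Or51k7 overlapped that of Hbe1, which is no receptor gene. Such an overlap was found for 2 of 129 members (1.55%) and for 9 of 996 dimmer receptors (0.904%). Transcription that runs from a neighbouring or overlapping gene into a receptor was not tested.

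The G+C content at the gene start, described here without a test, had a median of 43% in the members (n = 113) and 34.7% in the dimmer receptors (n = 844), while the median over all 27457 windows of the table was 52.3%. When the 957 receptors with a window were divided into 4 groups by G+C content, the share of members was 4 of 256 (1.56%) in the lowest, 7 of 230 (3.04%) in the next, 25 of 236 (10.6%) in the third and 77 of 235 (32.8%) in the highest. The same order held within class II, from 4 of 221 (1.81%) to 63 of 190 (33.2%), and within class I, from 0 of 17 to 11 of 35 (31.4%). It also held among receptors without a named non-receptor neighbour, from 3 of 243 (1.23%) to 48 of 166 (28.9%). Among those next to a named non-receptor gene the shares were 1 of 13 (7.69%), 0 of 15, 5 of 35 (14.3%) and 29 of 69 (42%), with the highest share again in the highest group. Over all 957 receptors, which share the same arrays, Pearson's r between G+C content and mean signal was 0.46 and Spearman's rho 0.45, while the 844 dimmer receptors alone gave 0.31 and 0.33 and the 113 members alone 0.09 for both. The members are cut on the same signal, which narrows its range. Of each window 250 bases lie before the gene start and 50 after it, so its G+C content is not that of the probes. The probe sequences were not used, and how much the probes' own base composition set these signals was not tested.

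**Figure D1:**
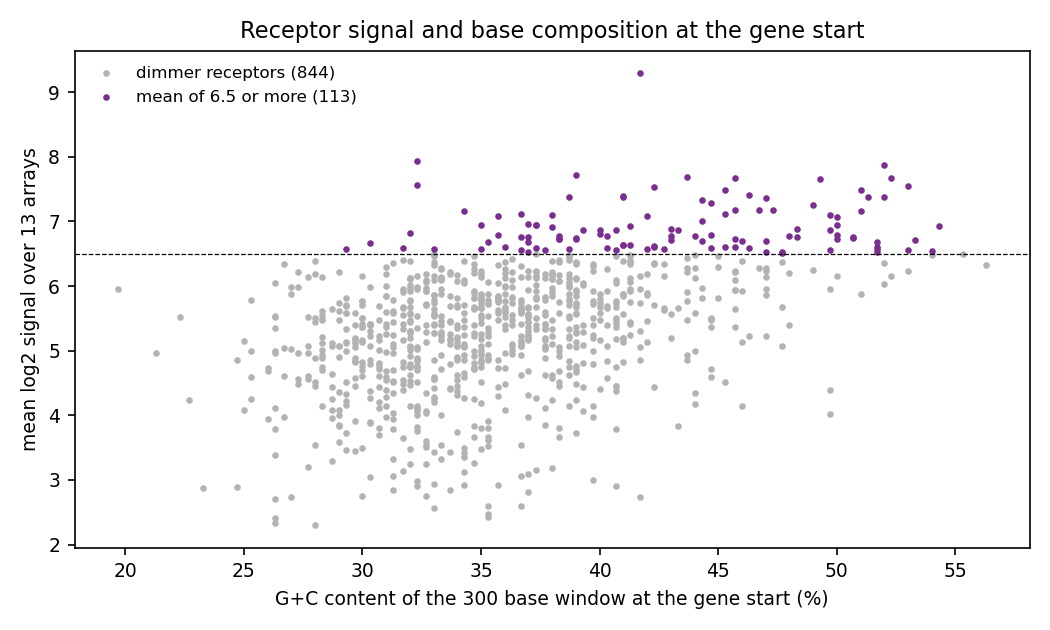
Mean log2 signal over 13 arrays (vertical axis) against the G+C content in percent of the 300 base window at the gene start (horizontal axis) for 957 receptors, 1 point each. Purple points are the 113 members with a window and grey points the 844 dimmer receptors, and the dashed line is the threshold of 6.5; few members lie on the left of the plot, where the lowest of 4 groups by G+C content held 4 of 256.

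Motifs were searched on both strands of the 250 bases before the gene start. TATAAA, the letters of a TATA box, was found in 20 of 113 members (17.7%), in 38.4% of the dimmer receptors and in 13.1% of all windows. TAATTA, a core bound by homeodomain proteins such as Lhx2 and Emx2, was found in 12 of 113 members (10.6%), in 19.7% of the dimmer receptors and in 4.94% of all windows. CCCNNGGG, the core of the Olf/Ebf motif, was found in 4 of 113 members (3.54%), in 0.592% of the dimmer receptors and in 11% of all windows. The first 2 motifs hold only A and T and the fixed letters of the last are G and C, and the part of the base composition given above in these shares was not tested. Of the 4 printed windows only that of Or8i2 held any of the 3 motifs, TAATTA from base 78. No match says only that these letters are not in the window.

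The receptors varied together from array to array, by more than the group means differed. The median signal of the 130 members reached 6.97 and 6.89 in control replicates 1 and 2, was lowest in control replicates 5 and 8 at 6.71 and 6.64, and lay between 6.77 and 6.83 in the other 9 arrays, all 6 of the fructose group among them. Control replicates 1 and 2 had the narrowest distribution of values over the 15633 probe sets with a gene, with an interquartile range of 2.19 and 2.15, where the other 11 arrays had 2.26 to 2.5. Control replicate 5 had the widest, 2.5, and control replicate 8 had 2.45, as did fructose replicate 7. Control replicate 1 or 2 held the highest value of 83 of the 130 members (63.8%), of 40.9% of the dimmer receptors and of 24.7% of all probe sets with a gene. Control replicate 5 or 8 held the lowest value of 73 members (56.2%), of 35.7% of the dimmer receptors and of 21.3% of all. After a renewed quantile normalization, which gives all arrays the same distribution, the first count was 51 of 130 (39.2%), beside 19.5% of the dimmer receptors and 24.7% of all, and the range of the array medians was 0.17 in place of 0.33. With each array centred on its median instead, the count was 92 (70.8%), beside 48.2% and 30.9%, and the range 0.38.

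**Figure D2:**
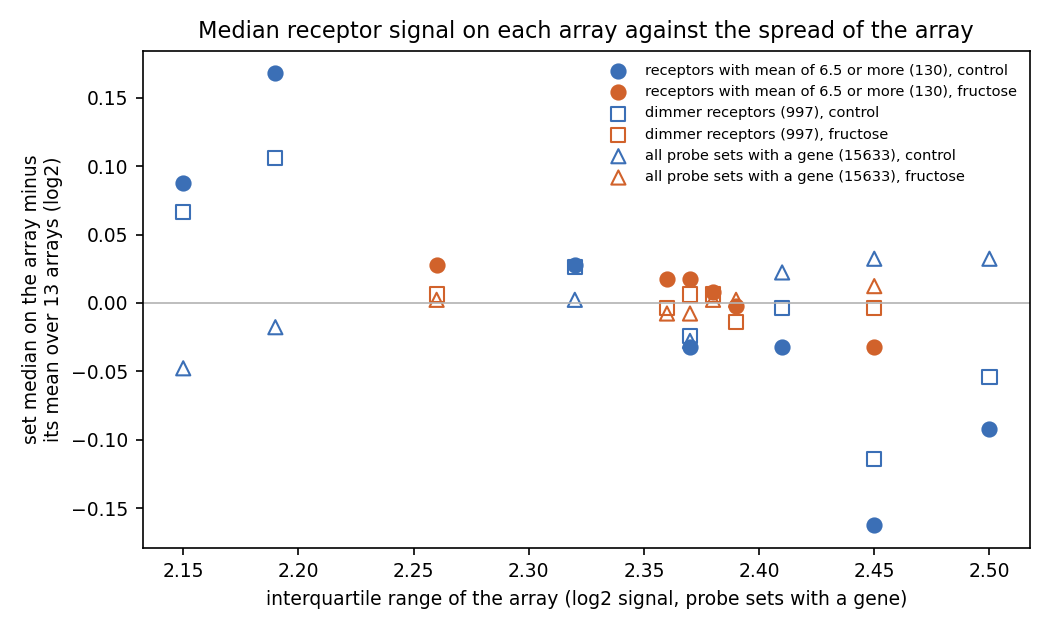
Median signal of a set of probe sets on each array minus its mean over the 13 arrays (vertical axis, log2) against the interquartile range of that array (horizontal axis, log2 signal). Filled circles are the 130 members, squares the 997 dimmer receptors and triangles all 15633 probe sets with a gene, blue for control and orange for fructose arrays; the 2 narrowest arrays, control replicates 1 and 2, have the highest medians of both receptor sets, and control replicates 5 and 8 the lowest.

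As group means, the members' array medians were 6.8 ± 0.11 (SD, n = 7) in controls and 6.81 ± 0.022 (SD, n = 6) in the fructose group. The control arrays therefore spanned a wider range around almost the same mean. The SD was smaller in the fructose than in the control group in 109 of 130 members (83.8%), beside 69.9% of the dimmer receptors and 70.8% of all probe sets with a gene. The median SDs of the members were 0.0896 in the fructose and 0.149 in the control group, and 0.12 in the controls without replicates 1 and 2.

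The spread between arrays of a group was small for most members. The median within-group SD was 0.132 on the log2 scale, against 0.144 in the dimmer receptors, 0.115 in all probe sets with a gene and 0.112 in the 9043 of these with a mean in the range of the members. Or8s8 was the most variable member, with a within-group SD of 0.462 and the only range over 1. Its control values ran from 5.91 through a median of 6.75 to 7.01, and its fructose values from 6.11 through a median of 7.1 to 7.37. Control replicate 8 was lowest at 5.91, fructose replicates 3 and 4 followed at 6.26 and 6.11, and fructose replicates 1, 7 and 8 were highest at 7.37, 7.36 and 7.24, so low and high arrays occurred in the same group. The neighbouring Or8s10 had a narrower range, from 7.01 to 7.45. Its lowest array was also control replicate 8 and its highest was fructose replicate 8, while fructose replicates 3 and 4, low in Or8s8, were at 7.25 and 7.18.

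The next most variable members were Or2ak6e, Olr1454, Or9s13, Or1o11b and Or2t47. In Or2ak6e the control values ran from 6.84 in replicate 5 to 7.84 in replicate 1, with a median of 7.38, and the fructose values from 7.19 to 7.56, with a median of 7.34. Olr1454 split the controls, with replicates 1, 2 and 7 at 7.73, 7.74 and 7.75, replicate 5 at 7.44, and replicates 3, 4 and 8 at 7.11, 7.2 and 7.14, while the fructose values ran from 7.37 to 7.91 with a median of 7.65. In Or9s13 a single array stood out, control replicate 5 at 8.1, where the other 6 controls lay between 7.19 and 7.55 and the fructose arrays between 7.14 and 7.48. Its neighbour Or9s14 was at 6.86 in that array. Or9s15, further along the same run, was at 7.29 there and ran from 7.19 to 7.56 over all arrays. In Or2t47 control replicate 1 was highest at 8.0 and the other controls ran from 7.2 to 7.59, and in Or1o11b control replicate 2 was highest at 7.18, with controls from 6.38 and fructose values from 6.52 to 6.91.

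**Figure D3:**
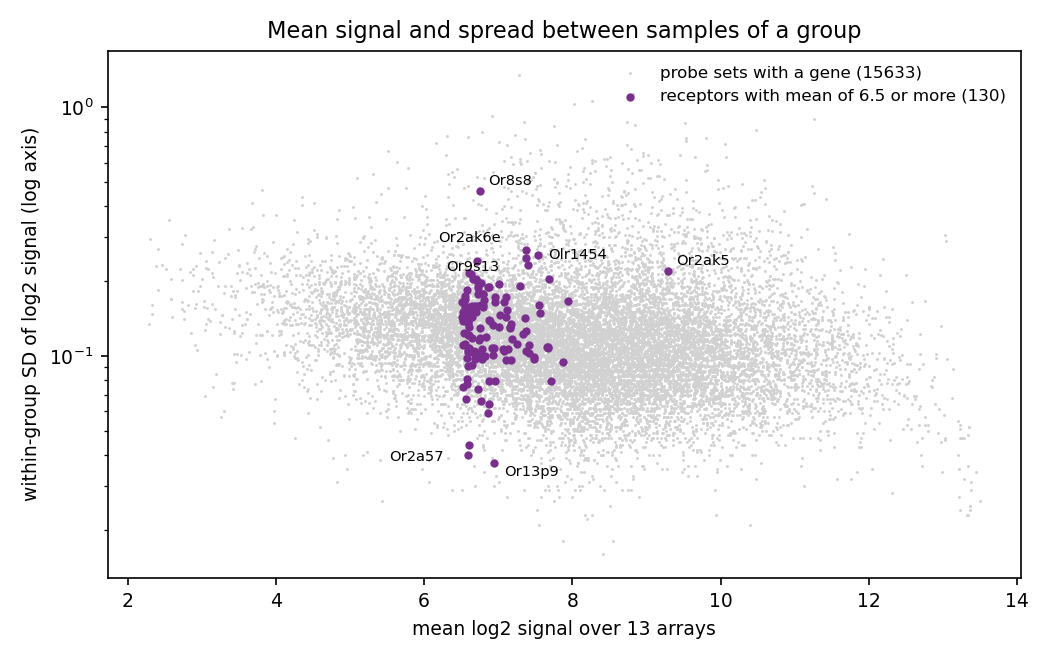
Within-group SD of the log2 signal (vertical log axis) against the mean log2 signal over 13 arrays (horizontal axis). Grey points are all 15633 probe sets with a gene and purple points the 130 members, 7 of them named; Or8s8 has the largest SD of the members, 0.462, and Or2ak5 the highest mean, 9.29.

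At the other end, 25 members had a within-group SD under 0.1. Several of these repeated the same value on many arrays. Or2a57 had the same value, 6.59, on 8 of 13 arrays to the last deposited digit, and 13 members (10%) had such an identical value on 5 or more arrays, against 12% of the dimmer receptors and 3.65% of all probe sets with a gene. At least 1 value repeated to the last digit occurred in 80 members (61.5%), 66.6% of the dimmer receptors and 41.3% of all. How the summary of the probes gives equal values was not tested. A small SD in such a probe set is not a measure of stable RNA.

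The groups were compared to see whether receptor signal in the aged brain differed by maternal diet. No receptor passed the test: 0 of 130 members had an adjusted p under 0.05 in limma's moderated test with Benjamini-Hochberg adjustment over 15633 probe sets, of which 0% passed. The smallest adjusted p was 0.9998. At an unadjusted p under 0.05 there were 4 members (3.08%), 2 higher and 2 lower in the fructose group, beside 2.23% of all probe sets tested (1.33% higher and 0.896% lower) and 4.41% of the dimmer receptors. This count was 8 without control replicate 1 (beside 2.26% of all probe sets), 7 without control replicate 7 (3.11%) and 2 without fructose replicate 7 (2.16%). The groups overlapped in all 130 members, and 0.0384% of all probe sets had groups that did not overlap. The median difference over the members was -0.0027, beside -0.013 over the dimmer receptors and 0.0056 over all. Above 0 were 64 of 130 members (49.2%), beside 44.1% of the dimmer receptors and 54.1% of all. In bulk tissue fewer cells with a transcript and less of it per cell cannot be told apart.

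The data limit how large a difference could have been missed. Differences, as fructose minus control, ran from -0.2 to 0.24. For 103 members (79.2%, against 84.6% of all probe sets) the 95% interval stayed under a 1.2-fold difference either way. It stayed under 1.5-fold for 129 members (99.2%) and under 2-fold for all 130. For a probe set near background, array signal understates a difference in RNA, so these limits hold for signal.

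The members with the smallest unadjusted p differed by 0.17 or less. Or8i2 had control values from 6.45 through a median of 6.57 to 6.79 and fructose values from 6.69 through 6.76 to 6.84. All 6 fructose arrays lay above 5 of the 7 controls, and control replicates 1 and 2, at 6.75 and 6.79, lay among them. Its difference was 0.16 ± 0.06 (SE; 95% interval 0.04 to 0.29; limma, unadjusted p = 0.0148, adjusted p = 0.9998). In Or8c19, controls ran from 6.55 to 6.85 and fructose arrays from 6.76 to 6.92, with a difference of 0.12 ± 0.06 (SE; limma, unadjusted p = 0.0452). Both are class II receptors of family 8, which gave few members.

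In the other direction, Or1d2 had control values from 6.68 through a median of 6.94 to 7.08 and fructose values from 6.58 through 6.75 to 6.87. Only control replicates 7 and 8 lay within the fructose range. Its difference was -0.17 ± 0.06 (SE; 95% interval -0.31 to -0.03; limma, unadjusted p = 0.0181). Or3a4 had controls from 6.83 to 7.03 and fructose arrays from 6.77 to 6.86, a difference of -0.1 ± 0.04 (SE; limma, unadjusted p = 0.0291), and its highest values were 7.03 in both control replicates 1 and 2. None of these 4 members passed the adjustment.

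Or2ak5 ran from 8.95 through a median of 9.18 to 9.53 in controls and from 8.96 through 9.45 to 9.73 in the fructose group. Control replicate 1 and fructose replicate 4 were the highest of their groups and control replicate 3 and fructose replicate 8 the lowest. Apart from fructose replicate 8, the fructose values ran from 9.28 to 9.73. Control replicates 1 and 7, at 9.53 and 9.32, lay in that range, and the other controls reached 9.21 at most. The means were 9.2 ± 0.18 (SD, n = 7) and 9.39 ± 0.26 (SD, n = 6), and the difference of 0.19 had a 95% interval from -0.04 to 0.42. Or8s8 had the largest difference in size, 0.24, with an interval from -0.23 to 0.71, wider than that of any other member. The lowest difference, -0.2 in Or2h1, rested on controls from 7.49 to 8.1 against fructose values from 7.41 to 7.91, and its interval, -0.42 to 0.02, included 0. Or9s13 and Or2t47 were at -0.19 and -0.18. In Or9s13 control replicate 5 was far above the other controls (8.1, next 7.55), and in Or2t47 control replicate 1 was highest (8.0, next 7.59).

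The other members with small unadjusted p had intervals that included 0 or reached it. Higher in the fructose group were Or1f20d (0.23), Or4k48 (0.15), Olr1454 (0.18), Or12j5 (0.11) and Or2y1g (0.09). Lower were Or2h2c (-0.12), Or1f32 (-0.1), Or1x2 (-0.1), Or5af1 (-0.1) and Or2w6 (-0.08). Members of 1 subfamily lay on both sides: Or1f20d was higher and Or1f32 lower. In the run of 6 Or9s genes the differences were between -0.04 and 0.01 in the 5 members other than Or9s13.

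**Figure D4:**
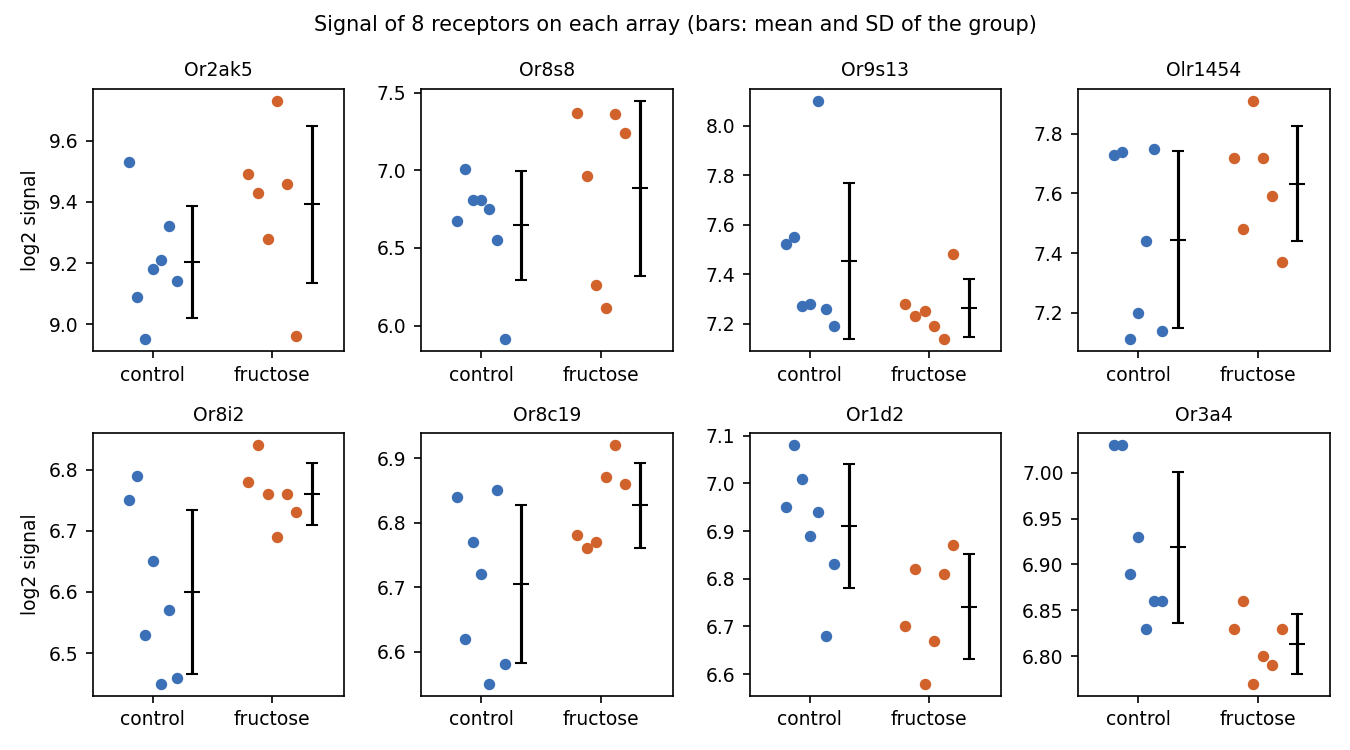
Log2 signal of 8 receptors on each array, 1 point per array, for the 7 control (blue) and 6 fructose (orange) samples, with the group mean and SD beside the points; the vertical scales differ between panels and do not start at 0. Points of the groups overlap in every panel, and in Or8i2 and Or3a4 the overlap is with 2 and with 3 of the 7 controls.

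**Figure D5:**
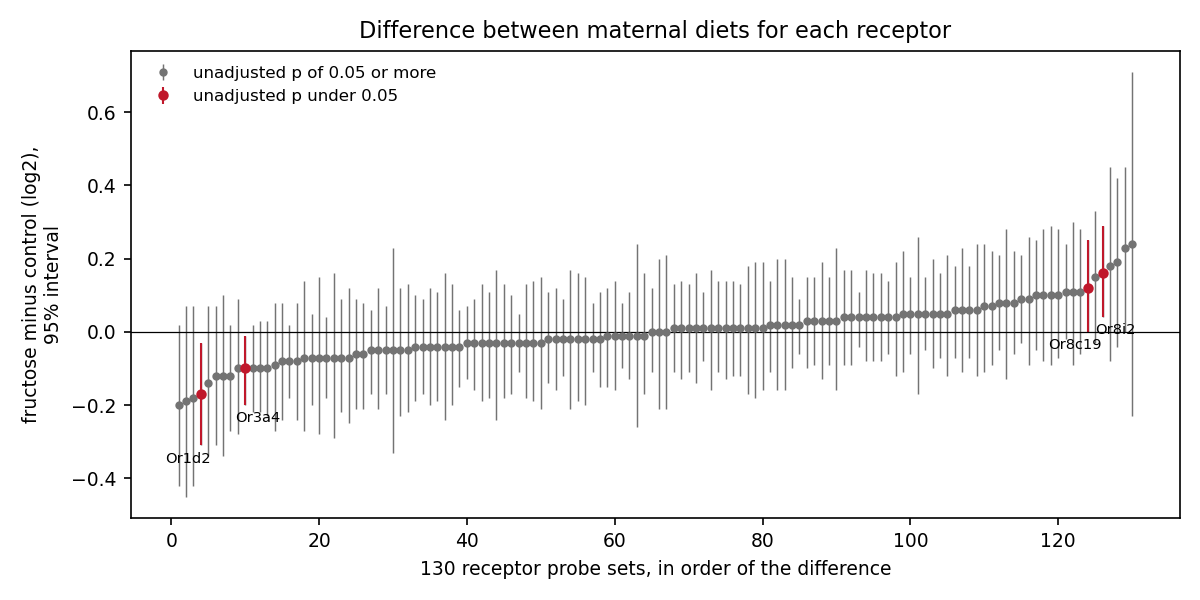
Difference of each of the 130 members, fructose minus control (vertical axis, log2, with its 95% interval), in order of size (horizontal axis). Red points mark the 4 members at an unadjusted p under 0.05; the differences run from -0.2 to 0.24 and the widest interval is that of Or8s8 on the right.

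The balance of directions depended on control replicates 1 and 2. Without these 2 narrow arrays, on 11 arrays, 103 of 130 members were above 0. The share of all probe sets above 0 was not counted there. The median difference was 0.054 over the members, 0.021 over the dimmer receptors and 0.0022 over all probe sets. The dimmer receptors thus also turned, from -0.013 with all arrays. There were 17 members (13.1%) at an unadjusted p under 0.05, all higher in the fructose group, beside 4.59% of all probe sets (3.05% higher and 1.54% lower). Of the 4 named above, Or8i2 and Or8c19 were among the 17. Or8i2 then differed by 0.23 ± 0.05 (SE; limma, unadjusted p = 0.000266, adjusted p = 0.617) and Or1f20d by 0.34 ± 0.09 (SE; unadjusted p = 0.00283, adjusted p = 0.953). No probe set passed the adjusted threshold there either, the smallest adjusted p being 0.345. The mean of the members' array medians in the remaining 5 controls was 6.74 ± 0.071 (SD, n = 5), below that of the fructose arrays. These controls include replicates 5 and 8, the arrays with the lowest receptor medians. Control replicate 1 or 2 held the highest value of 83 of the 130 members, so leaving both out moves differences upward by the choice of arrays. A fit without control replicates 5 and 8 together was not run. When limma weighted the arrays by their estimated quality instead, 10 members were at an unadjusted p under 0.05, 3 higher and 7 lower, beside 4.86% of all probe sets (2.69% higher and 2.17% lower).

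The machinery that receptors use in the nose was measured beside them. Of 18 genes of olfactory signal transduction, 17 were measured, with means from 5.96 to 12.63. Of these, 0 passed the adjusted threshold and 0 were at an unadjusted p under 0.05. Many of them also serve other neurons. Gnal, which couples dopamine and adenosine receptors in the striatum besides its role in the nose, had control values from 8.02 through a median of 8.8 to 10.14 and fructose values from 8.37 through 8.7 to 9.95. Control replicate 8 and fructose replicate 3 were far above the rest, and the difference was 0.05, which turned to -0.14 without control replicates 1 and 2. Adcy3 lay between 8.58 and 9.06 on all arrays, with a difference of -0.11 (95% interval -0.26 to 0.03).

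Markers of olfactory sensory neurons were measured as well. Cnga2 had a mean of 6.25, below the threshold used for the receptors, and ran from 6.06 to 6.4. Omp, the olfactory marker protein of mature sensory neurons, had a mean of 7.21 and ran from 6.95 in control replicate 5 to 7.47 in control replicate 2. Their differences were 0.01 and 0.03, and both signs turned in some of the alternative analyses. Stoml3, a protein of sensory cilia, was at 7.35 in control replicate 3 and between 6.2 and 6.82 in all other arrays, a difference of -0.24 (95% interval -0.51 to 0.03). Of 13 such markers 10 were measured, with means from 5.96 to 9.3 and a median difference of -0.0011, and 0 were at an unadjusted p under 0.05.

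Of 15 genes of receptor trafficking and receptor choice, all were measured and 0 passed the adjusted threshold. Rtp2, which carries receptors to the cell surface, differed by 0.11 (limma, unadjusted p = 0.0548). Emx2, a homeobox gene of the cortex and the olfactory system, had controls from 7.33 to 7.56 and fructose values from 7.49 to 7.68, a difference of 0.13 (unadjusted p = 0.0194, adjusted p = 0.9998). It was the only gene of this list at an unadjusted p under 0.05.

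Markers of the olfactory bulb and of the nasal epithelium were measured too. Whether their signal came from such tissue was not tested. Of 12 olfactory bulb markers 9 were measured, with means from 6.3 to 10.7, and 1, Synpr, a synaptic vesicle protein, was lower at an unadjusted p under 0.05 (difference -0.29, unadjusted p = 0.00306, adjusted p = 0.9998). Cdhr1, a cadherin of mitral and tufted cells of the bulb, was at 9.64 in fructose replicate 3 and 8.67 in control replicate 8 and between 7.15 and 8.03 in all other arrays. These are the 2 arrays with the highest Gnal. Calb2 was also high in control replicate 8, at 8.67, but was 7.1 in fructose replicate 3. Of the 9 bulb markers measured, Doc2g (8.41) and Calb2 were at their highest of 13 arrays in control replicate 8 and Etv1 at its lowest (10.38). In fructose replicate 3 Cdhr1 was at its highest, and Synpr (9.47) and Th (7.09) were at their lowest. Doc2g was at 8.4 there, as in control replicate 4. Whether these arrays held more of the bulb was not tested. Cyp2a3, a cytochrome P450 of nasal tissue, was at 8.56 and 8.5 in the same 2 arrays and between 6.86 and 7.55 in the others. Of the other 8 nasal epithelium markers measured, 0 were at their highest in control replicate 8 and 1 was in fructose replicate 3 (Sec14l3, at 6.13 and from 5.89 to 6.1 elsewhere), and Cyp2g1 was at 6.41 and 6.44. The members' median in those arrays was 6.64 and 6.82, and the part of bulb or nasal RNA in the receptor signal was not tested. Of 11 markers of the supporting and respiratory epithelium of the nose 9 were measured, with means from 5.36 to 7.53 and 0 at an unadjusted p under 0.05.

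The brain itself was well represented, with 8 of 8 neuron markers between 10.36 and 13.35 and 7 of 8 glia and vessel markers measured between 7.83 and 11.73. Cerebellum markers had means from 5.64 to 9.62 (7 of 7), choroid plexus and meninges markers from 6.57 to 8.82 (7 of 7) and blood markers from 4.46 to 11.26 (5 of 7). The highest cerebellum marker was Calb1 at 9.62, and the next was Cbln3 at 7.72. Whether any cerebellum remained was not tested. At an unadjusted p under 0.05 there were 1 neuron marker, Rbfox3, higher, and 1 cerebellum marker, Fat2, lower, both named after their values were seen, and 0 in the glia, choroid plexus and blood lists, and 0 passed the adjusted threshold. Beside the 11.5% of olfactory receptors, the threshold was reached in other chemosensory receptor families by 6 of 16 trace amine receptors, 4 of 27 taste receptors and 9 of 135 vomeronasal receptors. These shares were not tested against each other.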

How the data were processed

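RNA of 13 brain samples was labelled from 100 ng and hybridised to Affymetrix rat arrays, per the labels' protocols. The deposited values are log2 signals, and per the submitters' processing notes the authors used RMA and R 3.0.1. The annotation build of the array is not given in the sources used here. Each array was assigned to its group by its title. Genes came from the platform annotation.

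All 15633 probe sets that name a gene entered 1 fit in limma 3.58.1 under R 4.3.3 (functions lmFit and eBayes; 7 control and 6 fructose arrays, no filter, no covariates), with Benjamini-Hochberg adjustment over all of them and 0.05 as the threshold. The scripts were tested on simulated data. A fold change is on the log2 scale of the deposited signal. Precision is limited by how many arrays there were. Sequences and gene order came from RefSeq (GRCr8).

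Replicate numbers occur in both groups. The deviations of same-numbered arrays correlated between -0.335 and 0.187, so the numbers were not taken to pair them. Alternatives covered normalization, filters, array weights, left-out arrays, the replicate block and the member threshold.

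The members, the gene lists and the alternatives were chosen with earlier results of these data known. Named members were the 10 with the highest mean, the 8 with the smallest unadjusted p in each direction, the 6 with the largest SD and the 3 on either side of the threshold, and other genes were Gnal, Adcy3, Cnga2, Omp and up to 3 of each list by unadjusted p. Or2a57, the named Or9s, Or8s and Or2ak genes, the neighbouring genes, and Cdhr1, Calb2, Doc2g, Etv1, Th, Cyp2a3, Cyp2g1 and Sec14l3 were chosen after their values were seen. So were Calb1 and Cbln3. The gene that had a member and another probe set, Olr1471, had a mean of 6.02 in the latter. Protein identity between members was not used here.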

Additional observations from a re-analysis of the deposited data

Results flagged for a closer look

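In several named genes 1 array stood far from the others of its group, by the gap to the nearest array relative to the range of the group. For independent values that follow a normal distribution, chance flags about 1 in 20 groups. Values repeated to the last digit can change that rate, and members that vary together are not independent. Over all members 34 of 260 groups (13.1%) had such an array, most often fructose replicate 8 (7 members) and fructose replicate 7 (5 members). The share over all probe sets was not counted, so 13.1% does not show an excess of far arrays in the receptors. In the control group, Or9s13 was at 8.1 in replicate 5 (others 7.19 to 7.55), and in replicate 8 Or8s8 was at 5.91 (others 6.55 to 7.01) and Or8s10 at 7.01 (others 7.25 to 7.37). In the fructose group, Or13j1 was at 7.66 in replicate 7 (others 7.85 to 7.91), Or2h1 at 7.91 (others 7.41 to 7.6) and Or10ac1 at 7.85 (others 7.65 to 7.71) in replicate 8, Or2b11 at 7.94 in replicate 4 (others 7.43 to 7.54) and Or2y1g at 7.69 in replicate 3 (others 7.48 to 7.54). Or2a57 was at 6.61 in fructose replicate 1 and at 6.59 in the other 5, whose values are equal.

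Among the genes that are no receptors, Gnal (10.14), Calb2 (8.67) and Cyp2a3 (8.56) were far above the other controls in control replicate 8. In fructose replicate 3, Cdhr1 (9.64) and Cyp2a3 (8.5) were far above the rest of their group. Etv1 was at 10.96 in fructose replicate 4, and Stoml3 at 7.35 in control replicate 3. What these brains shared was not tested.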

How the results depend on the processing

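No probe set passed an adjusted p of 0.05 under any alternative run. The median difference over the members, -0.0027, turned to 0.0026 after quantile normalization and 0.0039 after cyclic loess, and ran from -0.02 to 0.027 with single arrays left out. The number of members at an unadjusted p under 0.05 was 4 as reported, beside 2.23% of all probe sets. It was 2 with arrays centred on their medians (2.35%), 7 after a renewed quantile normalization (3.04%) and 7 after cyclic loess (3.13%). With array weights it was 10 (4.86%), and without control replicates 1 and 2 it was 17 (4.59%). Without the 30% dimmest probe sets, which kept 31 members, it was 0 (2.06%). In the reported fit a member threshold of 6.0 gave 7 of 308 members and a threshold of 7.0 gave 0 of 40, also beside 2.23%. Leaving out 1 array at a time gave 2 to 8, with 8 without control replicate 1, 7 without control replicate 7 and 2 without fructose replicate 7. The range of the members' array medians, 0.33, was 0.38 with arrays centred on their medians, 0.17 after quantile normalization and 0.16 after cyclic loess, and control replicates 1 and 2 then held the highest value of 92, 51 and 49 members. The fit with the replicate number as a block (12 arrays) leaves out control replicate 5, whose number is not in the fructose group. The median difference over the members was then -0.02, and Omp turned to -0.013. Leaving out that array alone gives the same differences, so the block itself moved none. No array correlated best with its own number in the other group. Of 29 genes with a stated difference, 26 kept their direction under every alternative. Most of the 29 were named for a small unadjusted p in these same data, and the alternatives share most arrays. Kept directions were therefore likely from the start and are no independent support. The 3 that turned, Gnal, Cnga2 and Omp, had been named whatever their value. Gnal turned with array weights (-0.047), without control replicates 1 and 2 (-0.14) and with single arrays left out (-0.16 to 0.26). Cnga2 turned with array weights (-0.0018) and with single arrays left out (-0.021 to 0.042), and Omp ran from -0.013 to 0.073 with single arrays left out. The cause of these changes was not tested. Detection calls were not used here, so which members were above it is unknown.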
